A study of Mus musculus with 90 samples.

Results

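The 9 genes described here make serine, pass its carbon on to folate, or answer a shortage of amino acids. They are *Phgdh* (ENSMUSG00000053398), *Psat1* (ENSMUSG00000024640), *Psph* (ENSMUSG00000029446), *Asns* (ENSMUSG00000029752), *Shmt2* (ENSMUSG00000025403), *Mthfd2* (ENSMUSG00000005667), *Trib3* (ENSMUSG00000032715), *Chac1* (ENSMUSG00000027313) and *Atf5* (ENSMUSG00000038539). They were given as a list of symbols, with no threshold on a measured value, and are 9 of the 27654 genes in the tables. The study asked how the glucocorticoid receptor (GR) of hepatocytes takes part in the liver's answer to caloric restriction, with bulk RNA-seq of 90 livers from single adult male C57BL/6J mice. In the time series, WT and GR LKO mice on caloric restriction (cal. res., with 40% fewer calories at its end, 36 livers) or on night-restricted feeding (ctrl., 42 livers) were sampled at 6 times of day, ZT0 to ZT20, with food given at ZT12, when the lights went off. GR LKO mice carry floxed *Nr3c1*, the gene of GR, and Cre driven by the albumin promoter, which is active in hepatocytes, so that other liver cells keep GR, and their WT controls carry the floxed alleles without Cre. A separate diet comparison at ZT12 set 3 WT livers on caloric restriction against 3 WT livers on control diet, whose titles say AL (ad libitum) while their treatment label says night-restricted feeding, and a corticosterone experiment at ZT12 set 3 livers of WT mice injected with the hormone (CORT) against 3 livers of vehicle-treated WT mice, all of them control-fed. The vehicle livers are titled NR, and the paper describes vehicle injection for the controls of this treatment. By the paper, hormone or vehicle was injected daily for a week, at or shortly before lights off. Time series groups held 3 livers, except WT at ZT8, ZT12, ZT16 and ZT20 and GR LKO at ZT8 and ZT12 on control diet, which held 4.

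PHGDH, PSAT1 and PSPH turn an intermediate of glycolysis into serine in successive steps, and SHMT2 and MTHFD2 carry a carbon of serine into the folate pool of mitochondria. When amino acids run short or the endoplasmic reticulum is stressed, kinases of the integrated stress response phosphorylate eIF2alpha and the transcription factor ATF4 is made, and all these genes are known targets of ATF4. In liver, which takes up serine from the blood and also breaks it down, the enzymes of serine synthesis are known to rise when dietary protein is low.

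Values are CPM, counts scaled to a library size of 1e6 by TMM, and they are compared between livers for the same gene only, because CPM is not corrected for transcript length. Libraries held 36442195 to 39492146 counts in the diet comparison, 13739631 to 16077943 in the corticosterone experiment, and 14235473 to 20788575 on cal. res. and 10057544 to 17089004 on ctrl. in the time series. The diets of the time series are separate batches of libraries by their labels, so batch and diet cannot be told apart there. The only fold changes given between them are those named as an alternative for the diet comparison. *Nr3c1* checked the genotype labels. On cal. res. it lay between 70.5 and 113 CPM in WT and between 21.6 and 32.2 CPM in GR LKO, and on ctrl. between 72.8 and 117 CPM in WT and between 16.2 and 28.8 CPM in GR LKO. No library went against its label, and the log2 fold change of GR LKO against WT ran from -2.06 to -1.70 over the 12 comparisons. Markers of hepatocytes, led by *Alb*, summed to between 77774 and 185193 CPM in every library, as the label liver says. *Tf*, 1 of the 8 on that list, was not matched to a gene ID.

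Single libraries stood apart. The 10 markers of exocrine pancreas summed to 904 CPM, led by *Ctrb1*, in replicate 3 of WT cal. res. at ZT12, and to 452 CPM, led by *Cela2a*, in replicate 2 of WT ctrl. at ZT16, and to at most 2.93 CPM in any other library. Replicate 1 of GR LKO ctrl. at ZT20 was the highest of all 90 libraries for *Psat1*, *Phgdh*, *Mthfd2*, *Atf5* and the summed markers of cholangiocytes (152 CPM, led by *Spp1*, with *Epcam* at 0). Replicate 1 of GR LKO cal. res. at ZT20 had 337 CPM of Kupffer and myeloid markers, led by *Clec4f*, beside 123 and 128, and 525 CPM of stellate markers, led by *Dcn*, beside 295 and 316. Replicate 2 of GR LKO cal. res. at ZT0 had 3863 CPM of erythrocyte markers, led by *Hbb-bs*, beside 424 and 590. Apart from *Epcam*, none of these markers was at 0 in the library named. Replicate 2 of WT cal. res. at ZT8 had 381 CPM of Kupffer and myeloid markers beside 166 and 222. It had 3.96 CPM of neutrophil markers beside 0.377 and 0.681. Both sums were the highest of all 90 libraries. Other departures of single libraries are not listed, and not every list of cell markers is reported. Because the tissue is bulk liver, fewer cells of a type and less RNA per cell cannot be told apart in any value given here.

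A gene was called at an adjusted p under 0.05. Unless DESeq2 or JTK_CYCLE is named, p-values come from edgeR's quasi-likelihood F test, two-sided, with Benjamini-Hochberg adjustment over all genes tested. In the diet comparison 2 of the 8 members tested were called, against 47.1% of all genes. Corticosterone called 2 of the 7 members tested, where 8.11% of all genes were called. At the step from ZT12 to ZT16, over which the mice were fed, the members called were 4 of 7 in WT on cal. res. (40% of all genes), 2 of 5 in GR LKO on cal. res. (37.8%), 2 of 7 in WT on ctrl. (13.4%) and 1 of 7 in GR LKO on ctrl. (9.06%). Groups that do not overlap were common among all genes tested, at 59% in the diet comparison, 32.9% with corticosterone, 54.8, 52.3, 21.4 and 23.1% at that step in the same 4 groups, and between genotypes 20.1 to 36.9% on cal. res. and 7.42 to 22.5% on ctrl. A lack of overlap in a member is to be read beside these shares.

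Loss of GR in hepatocytes was tested at each time and diet. On cal. res. 0 members were called at ZT0 (0.502% of all genes), ZT4 (0.69%), ZT8 (2.55%), ZT12 (15.3%) and ZT16 (4.54%), and 1, *Atf5*, at ZT20 (1.47%). On ctrl. 0 members were called at ZT0 (0.536%), ZT4 (0.195%), ZT8 (1.43%), ZT12 (2.08%), ZT16 (1.98%) and ZT20 (0.42%). Beside these edgeR counts, 12 of the 38 member tests on cal. res. and 4 of the 40 on ctrl. had an unadjusted p under 0.05 (19.1 and 12.8% over all genes), and DESeq2 called 6 and 1 (6.74 and 3.09% over all genes). Whether the genotype effect differed between the diets was tested as an interaction, in which the batch of each diet drops out. It called 0 members at ZT0 (0% of all genes), ZT4 (0%), ZT8 (0.081%), ZT12 (1.01%), ZT16 (0.234%) and ZT20 (0%), with 5 of 44 member tests at an unadjusted p under 0.05 (9.39% over all genes) and 1 called by DESeq2 (1.56%). Nor did edgeR call a member for an interaction of genotype and time (0 members on cal. res., where 5.34% of all genes were called, and 0 on ctrl., where 0.6% were), with 3 of 16 member tests at an unadjusted p under 0.05 (15.3% over all genes) and 1 called by DESeq2 (7.29%), *Psph* on cal. res. (adjusted p 0.0331, with a range over the alternatives of 0.0331 to 0.681).

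At ZT12 on cal. res. markers of several cell types differed between the genotypes too. Those of Kupffer and myeloid cells, led by *Clec4f* or, in GR LKO replicate 3, *Lyz2*, summed to 53.6, 87.8 and 63.5 CPM in WT and 149, 118 and 181 CPM in GR LKO (4 of 8 called higher). Endothelial markers, led by *Clec4g*, went from 172, 161 and 192 to 224, 212 and 238 CPM (2 of 6 called higher). Hepatocyte markers, led by *Alb*, went from 177891, 183735 and 185193 to 136367, 144086 and 126745 CPM (4 of 7 called lower). None of these 3 lists had a marker at 0. Cholangiocyte markers, led by *Spp1*, went from 26.4, 31.2 and 29.1 to 31.5, 32.5 and 32 CPM (1 of 3 tested called lower), with *Epcam* at 0 in all 6 livers. Adipocyte markers went from 277, 426 and 272 to 1497, 1838 and 1843 CPM (1 of 3 tested called higher), led by *Car3*, with *Plin1* and *Lep* at 0 in all 6 livers. The adipocyte sum can be nearly all *Car3*. In the 3 GR LKO ctrl. livers at ZT20 that gene had 2892, 8609 and 6307 of the 2919, 8672 and 6325 CPM. *Adipoq*, *Plin1* and *Lep* were at 0 in those livers. Adipocyte sums are therefore not read here as amounts of fat tissue. The part of all these markers in the genotype differences of *Psph*, *Mthfd2*, *Chac1* and *Atf5* at ZT12 on cal. res. was not tested.

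At the other times on cal. res. adipocyte markers, led by *Car3* with *Plin1* and *Lep* at 0 throughout, were higher in each GR LKO liver than in each WT liver. They summed in WT and GR LKO to 1447, 2369 and 2806 and to 5214, 4878 and 5154 CPM at ZT0 (0 of 4 tested called) and to 561, 639 and 1599 and to 3110, 3741 and 3152 CPM at ZT4 (1 of 3 higher). They came to 782, 215 and 693 and to 2670, 3126 and 3006 CPM at ZT8 (2 of 3), to 499, 721 and 575 and to 3670, 3745 and 4065 CPM at ZT16 (2 of 3) and to 2605, 2654 and 3239 and to 4411, 4301 and 7332 CPM at ZT20 (1 of 3). Hepatocyte markers, led by *Alb*, were lower in GR LKO at ZT0 (128438, 130740 and 132734 to 114126, 117464 and 111950 CPM, 0 of 7 called), ZT8 (152941, 126192 and 125072 to 121134, 118712 and 119561 CPM, 1 of 7) and ZT16 (144992, 151909 and 147565 to 134792, 112075 and 138952 CPM, 1 of 7). Endothelial markers, led by *Kdr*, *Stab2* or *Clec4g*, were higher at ZT4 (166, 152 and 193 to 238, 243 and 206 CPM) and ZT8 (159, 170 and 164 to 200, 210 and 221 CPM), with 0 of 6 called at either, and neither of these 2 lists had a marker at 0. Neutrophil markers, led by *S100a9* or *S100a8*, were higher at ZT0 (1.24, 0.805 and 1.21 to 1.95, 3.52 and 1.77 CPM, 0 of 2 tested called, *Ly6g* at 0 in 5 of 6 livers) and at ZT16 (0.371, 0.213 and 0.822 to 0.867, 0.952 and 1 CPM, 0 tested, *Ly6g* at 0 in all 6).

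On ctrl. adipocyte markers, led by *Car3* with *Plin1* at 0 throughout, were higher in each GR LKO liver at 5 of the times. They went from 4469, 4295 and 2173 to 9416, 7383 and 7125 CPM at ZT0 (1 of 4 tested called higher), from 3514, 4464 and 3590 to 6069, 6282 and 6256 CPM at ZT4 (1 of 4), from 3418, 3735, 3839 and 4345 to 6571, 5670, 5385 and 4883 CPM at ZT8 (3 of 4), from 3657, 2507, 2946 and 2221 to 3981, 3893, 6221 and 4689 CPM at ZT12 (1 of 4) and from 3169, 2870, 1998 and 2096 to 5724, 5552 and 5204 CPM at ZT16 (1 of 4). Hepatocyte markers, led by *Alb* with none at 0, were lower at ZT4 (107904, 108057 and 108867 to 86507, 82633 and 91194 CPM) and ZT16 (106430, 110536, 104629 and 97868 to 94970, 84094 and 95315 CPM), with 0 of 7 called at either. So were cholangiocyte markers at ZT4, led by *Spp1* with *Epcam* at 0 (39.4, 45.7 and 46.1 to 33.2, 36 and 28.3 CPM, 0 of 3 tested called), and endothelial markers at ZT16, led by *Clec4g* with none at 0 (106, 108, 102 and 105 to 101, 78.4 and 98.9 CPM, 0 of 6 called). The part of the markers of either diet in the genotype differences of *Atf5*, *Asns*, *Chac1* and the other members was not tested.

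Markers moved over the step from ZT12 to ZT16 too. In WT on cal. res. 8 of 8 Kupffer and myeloid markers were called higher, led by *Clec4f*, and they summed to 53.6, 87.8 and 63.5 CPM at ZT12 and 128, 170 and 163 CPM at ZT16, with none at 0, while 0 of 8 were called by edgeR in GR LKO. Hepatocyte markers, led by *Alb* with none at 0, fell in WT from 177891, 183735 and 185193 to 144992, 151909 and 147565 CPM (3 of 7 called lower). Adipocyte markers, led by *Car3* with *Plin1* and *Lep* at 0, rose in WT from 277, 426 and 272 to 499, 721 and 575 CPM (1 of 3 tested higher) and in GR LKO from 1497, 1838 and 1843 to 3670, 3745 and 4065 CPM (2 of 3). Cholangiocyte markers, led by *Spp1* with *Epcam* at 0, rose in WT from 26.4, 31.2 and 29.1 to 33.3, 38.7 and 36.5 CPM (0 of 3 tested called) and in GR LKO from 31.5, 32.5 and 32 to 41.9, 34.8 and 37.5 CPM (1 of 4). Endothelial markers, led by *Clec4g* with none at 0, fell in GR LKO from 224, 212 and 238 to 164, 206 and 184 CPM (2 of 6 called lower). Neutrophil markers, led by *S100a9*, *S100a8* or *Retnlg* with *Ly6g* at 0 and none tested, went from 0, 0 and 0.0565 to 0.371, 0.213 and 0.822 CPM in WT and from 0.577, 0 and 0.308 to 0.867, 0.952 and 1 CPM in GR LKO. In WT on ctrl. endothelial markers, led by *Clec4g* or *Stab2*, rose from 87.1, 75.5, 77.1 and 85.6 to 106, 108, 102 and 105 CPM (3 of 6 called higher), and stellate markers, led by *Dcn*, from 139, 115, 105 and 137 to 222, 171, 235 and 202 CPM (4 of 7), with none at 0. Their part in the changes of *Psph*, *Trib3*, *Chac1* and *Atf5* over this step was not tested.

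A 24 h rhythm was tested with JTK_CYCLE, a rank test with an exact null distribution, in each diet and genotype. It called 3 of the 9 members in WT on cal. res. (27.8% of all genes), 4 in GR LKO on cal. res. (25.5%), 2 in WT on ctrl. (32.3%) and 3 in GR LKO on ctrl. (28.3%). These shares lie near those of all genes. *Trib3* and *Atf5* were called in all 4 groups.

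Serine synthesis begins with PHGDH, which oxidizes 3-phosphoglycerate. *Phgdh* lay between 0 and 1.06 CPM (median 0.132), with 61 of the 90 libraries at 3 counts or fewer and 19 at 0, so it could be tested in no comparison of 2 groups and its changes were not detectable at this depth. PSAT1 adds the amino group. *Psat1* lay between 0 and 9.05 CPM (median 0.452), with 14 libraries at 3 counts or fewer. In the corticosterone experiment it had 0.144, 0.249 and 0 CPM in vehicle livers and 1.44, 0.791 and 0.616 CPM in CORT livers. All CORT livers lay above all vehicle livers, but the gene was too low to be tested there. In the diet comparison it had 0.624, 0.862 and 0.845 CPM on ctrl. and 0.455, 0.728 and 0.491 CPM on cal. res., and the diets overlapped (log2 fold change -0.47, SE 0.29, adjusted p 0.213). In the time series, 2 libraries were far above the others of their groups.

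These were replicate 1 of GR LKO ctrl. at ZT20, with 9.05 CPM (136 counts) beside 0.199 and 0.613 CPM, and replicate 3 of WT cal. res. at ZT16, with 3.58 CPM beside 0.477 and 0.284 CPM. One fit of all cal. res. libraries, with the latter included, called *Psat1* from ZT12 to ZT16 in WT (log2 fold change 1.86, adjusted p 0.03), as the only 1 of 7 alternatives that tested it (0.03 to 0.361). In the former library 8 of the 9 members were above both other livers of the group, and of 46 other genes of the same pathways 21 were above both and 14 below both. Among those above were *Phgdh* at 1.06 CPM beside 0.0997 and 0, *Mthfd2* at 4.86 beside 1.2 and 1.4, *Mthfd1l* at 5.59 beside 0.399 and 1.58 and *Nupr1* at 3.86 beside 0.199 and 1.05 CPM. Markers of other cells went both ways, with 7 of 7 of stellate cells, 4 of 5 of cholangiocytes, 5 of 6 of neutrophils, 1 of 7 of hepatocytes and 4 of 8 of Kupffer and myeloid cells above both livers, and 6 of 6 erythrocyte, 5 of 7 hepatocyte, 4 of 6 endothelial and 2 of 8 Kupffer and myeloid markers below both. Among them were *Col1a1* at 31 beside 7.57 and 3.24, *Krt19* at 5.85 beside 1.4 and 1.14, *Lyz2* at 82.4 beside 30 and 32 and *Clec4f* at 26.4 beside 35.7 and 40.6 CPM, while *Shmt2* was lower, at 103 beside 144 and 148 CPM, as was *Atf4*, at 85.8 beside 114 and 115 CPM. The part of other cells in these values was not tested. An F test of time by edgeR called *Psat1* in GR LKO on ctrl. with this library included (0.0117, range over the alternatives 0.0117 to 1), and JTK_CYCLE did not. *Mthfd1l*, *Nupr1*, *Atf4*, *Col1a1*, *Krt19*, *Lyz2* and *Clec4f* are named here after their values were seen.

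PSPH removes the phosphate that leaves serine, and *Psph* was the only one of the 3 synthesis genes that could be tested in every comparison. Over the 90 libraries it lay between 1.81 and 6.93 CPM (median 4.01). At ZT12 on cal. res. WT livers had 3.3, 1.81 and 2.65 CPM, and at ZT16 5.56, 4.54 and 6.93 CPM. Every WT liver after feeding lay above every WT liver before it (log2 fold change 1.15, SE 0.27, adjusted p 0.0132), and the call was made in all 11 alternatives (adjusted p 4.22e-05 to 0.0481). In GR LKO on cal. res. the values were 3.52, 3.9 and 4.74 CPM at ZT12 and 4.22, 3.51 and 4.38 CPM at ZT16, which overlap (log2 fold change 0.01, SE 0.20, adjusted p 0.972). GR LKO livers thus lay above WT at ZT12 (log2 fold change 0.64, SE 0.27, adjusted p 0.158) and below WT at ZT16 (-0.49, SE 0.21, adjusted p 0.247), groups that did not overlap at either time, though neither difference was called. One edgeR fit of all cal. res. libraries called the ZT12 difference (adjusted p 0.0229, with a range over the alternatives of 0.0229 to 0.363). The interaction of genotype and time on cal. res. missed the threshold for *Psph* (adjusted p 0.0724). On ctrl. the step to ZT16 was small in both genotypes (0.14 with SE 0.21 in WT and 0.38 with SE 0.17 in GR LKO, adjusted p 0.702 and 0.222). JTK_CYCLE called a rhythm in WT on cal. res. with a peak at ZT20 (adjusted p 0.0276), which was lost without replicate 1, 2 or 3 of each time (0.201, 0.0895 and 0.357). In GR LKO on cal. res. only the F test of time by edgeR called *Psph* (0.0158, range over the alternatives 0.0158 to 0.576).

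SHMT2 splits serine into glycine and a carbon unit on folate. In the diet comparison *Shmt2* had 159, 165 and 141 CPM on ctrl. and 127, 100 and 98.3 CPM on cal. res. Every cal. res. liver lay below every ctrl. liver (log2 fold change -0.52, SE 0.12, adjusted p 0.0106), and the call was made in all 11 alternatives (0.000258 to 0.0452). Corticosterone had no detectable effect, with 141, 164 and 144 CPM in vehicle livers and 141, 155 and 122 CPM in CORT livers (log2 fold change -0.11, SE 0.12, adjusted p 0.624). In the time series *Shmt2* moved little over the day, with highest to lowest group means of 150 and 120 CPM in WT on cal. res. and 170 and 145 CPM in WT on ctrl. On cal. res. its fitted level was lower in GR LKO than in WT at 6 of 6 times (log2 fold change -0.46 to -0.01, unadjusted p under 0.05 at 3 of them, adjusted p 0.146 to 0.984), and on ctrl. at 5 of 6 times, and no difference was called. At ZT4 on cal. res. it had 143, 141 and 132 CPM in WT and 116, 107 and 80.2 CPM in GR LKO, without overlap (log2 fold change -0.46, SE 0.14, adjusted p 0.207). DESeq2 called that difference (adjusted p 0.0381), where the alternatives ranged from 0.0381 to 0.44. From ZT12 to ZT16 in WT on cal. res. *Shmt2* rose by 0.21 on the log2 scale (SE 0.12, adjusted p 0.185), and by 0.35 with a call (0.0189, range over the alternatives 0.0189 to 0.433) without replicate 1 of ZT12.

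MTHFD2 oxidizes that carbon unit further. *Mthfd2* was low, between 0.116 and 4.86 CPM (median 0.65). In the diet comparison it had 0.374, 0.314 and 0.634 CPM on ctrl. and 0.853, 1.09 and 1.119 CPM on cal. res. All cal. res. livers were above all ctrl. livers, opposite in direction to *Shmt2* (log2 fold change 1.21, SE 0.32, adjusted p 0.0181). The call depended on single livers, and was lost without ctrl. replicate 1 (adjusted p 0.0705), ctrl. replicate 2 (0.0668), cal. res. replicate 2 (0.0597) or cal. res. replicate 3 (0.057). Between the WT livers of the time series at ZT12, where batch and diet cannot be told apart, the log2 fold change was 0.07 (adjusted p 0.937, the highest of alternatives that began at 0.0112). Corticosterone gave 0.647, 0.746 and 1.71 CPM in vehicle livers and 2.05, 0.461 and 1.3 CPM in CORT livers, which overlap widely (log2 fold change 0.28, SE 0.61, adjusted p 0.823). At ZT12 on cal. res. *Mthfd2* had 1.05, 0.976 and 0.395 CPM in WT and 0.173, 0.226 and 0.246 CPM in GR LKO. No GR LKO liver reached the lowest WT liver, but the gene was below the filter on low counts there. It passed the filter without WT replicate 3 (log2 fold change -2.21, adjusted p 0.0415) and in 1 fit of all cal. res. libraries (-1.87, adjusted p 0.0283), with a range of 0.0283 to 0.137 over the 6 alternatives that tested it. WT replicate 3 is the library with markers of exocrine pancreas. JTK_CYCLE called *Mthfd2* in GR LKO on both diets with a peak at ZT20 (adjusted p 0.0115 on cal. res. and 0.0134 on ctrl.) and not in WT (0.237 and 0.059). On cal. res. the call was lost without replicate 1 (0.221) or replicate 3 (0.278), and on ctrl. without replicate 1 (0.219) or replicate 3 (0.0817), but not when only the ZT20 library that stood apart was left out. In WT on ctrl. 3 of 7 alternatives made a call, JTK_CYCLE on genes past the filter (0.0401), the F test of time (0.0483) and JTK_CYCLE without replicate 3 (0.044), in a range of 0.0401 to 0.403.

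ASNS makes asparagine from aspartate and glutamine. *Asns* varied more between livers of 1 group than any other member with enough counts. Its pooled SD of log2 CPM within groups was 1.43, where 2217 genes of like level had a median of 0.154. At ZT16 on cal. res. WT livers had 66, 21.9 and 105 CPM and GR LKO livers 8.15, 83.8 and 73 CPM, and at ZT12 on ctrl. WT livers had 73.5, 39.7, 46.9 and 22.8 CPM and GR LKO livers 25.7, 15.2, 84.7 and 2.22 CPM. At ZT20 on ctrl. WT livers had 16.7, 36.2, 0.992 and 9.56 CPM. In 3 of these 5 groups the highest liver had more than 10 times the level of the lowest, and the genotypes overlapped at ZT16 on cal. res. and at ZT12 on ctrl. In the library with the highest *Asns* (105 CPM) all 10 pancreatic markers were at 0, and the libraries rich in those markers had 11.1 and 45.6 CPM. The part of other cells in the spread was not tested.

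Across the day *Asns* was highest around the meal on both diets. On cal. res. WT group means ran from 2.47 CPM at ZT20 to 64.3 CPM at ZT16, and GR LKO means from 0.244 CPM at ZT8 to 55 CPM at ZT16. At ZT8 on cal. res. GR LKO livers had 0.238, 0.319 and 0.174 CPM and WT livers 0.567, 10.4 and 2.69 CPM. WT replicate 2, at 10.4 CPM, is the library with the highest Kupffer and myeloid and neutrophil marker sums, whose part was not tested. GR LKO lay below every WT liver, but the gene did not pass the filter. It passed in 7 alternatives with an adjusted p of 8.51e-05 to 0.309 and a call in 2 of them, DESeq2 (log2 fold change -4.23, adjusted p 8.51e-05) and edgeR without WT replicate 1 (-4.72, adjusted p 0.0299). At ZT0 on ctrl. WT livers had 37, 7.82 and 39 CPM and GR LKO livers 0.915, 7.38 and 0.396 CPM. The groups did not overlap, although replicate 2 of each genotype was nearly equal (log2 fold change -3.29, SE 0.97, adjusted p 0.198). No genotype comparison by edgeR with all livers called *Asns*. JTK_CYCLE did not call it either (adjusted p 0.118 and 0.248 on cal. res., 0.119 and 0.093 on ctrl., in WT and GR LKO), except in WT on ctrl. without replicate 3 (0.0345). An F test of time by edgeR called it in all 4 groups (adjusted p 0.000823 and 0.000164 on cal. res., 0.0166 and 0.03 on ctrl.), where the range over the alternatives reached 0.703, 1, 0.78 and 0.603. From ZT12 to ZT16 on cal. res. it was called only without WT ZT12 replicate 1 (log2 fold change 2.20, adjusted p 0.0438, range over the alternatives 0.0438 to 0.656) and without GR LKO ZT16 replicate 1 (1.88, adjusted p 0.0394, range 0.0394 to 0.466). In the separate experiments the levels overlapped, with 0.649, 1.99 and 2.01 CPM on ctrl. and 0.654, 1.3 and 1.119 CPM on cal. res., and with 3.09, 6.4 and 4.99 CPM in vehicle livers and 12.1, 3.43 and 3.42 CPM in CORT livers (adjusted p 0.326 and 0.718).

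**Figure D1:**
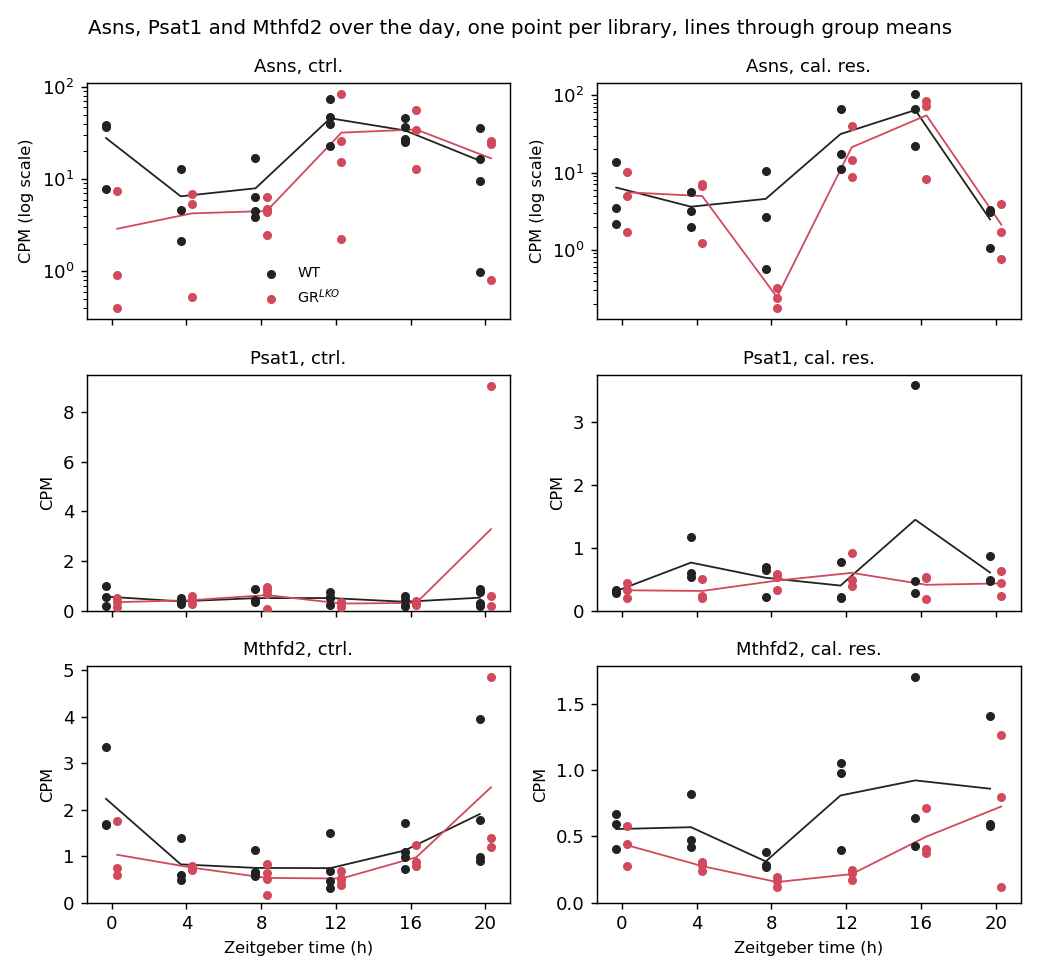
CPM of *Asns* (log axis), *Psat1* and *Mthfd2* against zeitgeber time in hours, on ctrl. (left) and cal. res. (right), with 1 point per liver and lines through group means for WT (black) and GR LKO (red). *Asns* spreads widely within groups, and 1 GR LKO liver at ZT20 on ctrl. stands apart at 9.05 CPM of *Psat1* and 4.86 CPM of *Mthfd2*.

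TRIB3 is a pseudokinase that restrains AKT and ATF4 itself. In the corticosterone experiment *Trib3* had 1.44, 1.55 and 1.71 CPM in vehicle livers and 5.08, 5.93 and 3.97 CPM in CORT livers. Every CORT liver lay above every vehicle liver (log2 fold change 1.67, SE 0.25, adjusted p 0.0122). The call was made in 9 of 10 alternatives (0.000199 to 0.0625) and lost without vehicle replicate 2 (0.0625). Between the diets at ZT12 it had 4.92, 4.31 and 3.06 CPM on ctrl. and 8.45, 5.93 and 4.99 CPM on cal. res., again without overlap but short of the threshold (log2 fold change 0.65, SE 0.25, adjusted p 0.0645). It was called with a replicate block (0.0159), by DESeq2 (0.0429) and by edgeR without cal. res. replicate 3 (0.0425). The alternatives ran from 0.0159 to 0.618, the last between batches of the time series (log2 fold change -0.17).

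*Trib3* also had the steadiest daily course. In WT on ctrl. the 4 livers of ZT8 had 16.2, 14.8, 25.8 and 18.7 CPM and the 3 livers of ZT0 1.69, 1.95 and 1.71 CPM, and in WT on cal. res. the 3 livers of ZT4 had 20.9, 30.2 and 17.3 CPM and those of ZT20 2.87, 2.55 and 3.69 CPM. These were the highest and lowest group means, so the gene rose in the light phase and fell by the meal. JTK_CYCLE called it with a peak at ZT4 on cal. res. (adjusted p 0.000411 in WT and 0.000433 in GR LKO) and at ZT8 on ctrl. (0.000352 and 0.000408), and no alternative lost a call. Whether the peak differs between the diets was not tested, since diet and batch coincide. Over the step to ZT16 it fell in all 4 groups, from 7.98, 4.81, 4.68 and 4.08 to 2.32, 1.72, 1.124 and 2.58 CPM in WT on ctrl. (log2 fold change -1.46, SE 0.31, adjusted p 0.0165). In GR LKO on ctrl. it went from 7.16, 5.69, 6.3 and 8.01 to 1.29, 1.35 and 1.33 CPM (-2.34, SE 0.20, adjusted p 0.00164), a call made in 11 of 12 alternatives (2.27e-12 to 0.0569) and lost with a replicate block. Neither pair of groups overlapped. On cal. res. it went from 5.05, 4.53 and 4.97 to 2.7, 2.62 and 3.82 CPM in WT (-0.65, SE 0.21, adjusted p 0.0407), and from 5.25, 6.61 and 6.28 to 3.18, 3.87 and 3.88 CPM in GR LKO (-0.72, SE 0.18, adjusted p 0.0171). The WT call held in 2 of 11 alternatives (0.0249 to 0.124) and was lost without replicate 1, 2 or 3 of ZT12 (0.0894, 0.0717 and 0.0959) and without replicate 1 or 2 of ZT16 (0.124 and 0.112). It was also lost with no filter (0.0564), a replicate block (0.0666), DESeq2 (0.0746) and 1 fit of all cal. res. libraries (0.0637). The GR LKO call was lost without replicate 3 of ZT12 (0.0596) or replicate 1 of ZT16 (0.0568). Its genotype effect was never called. On cal. res. the fitted level was higher in GR LKO at 6 of 6 times (log2 fold change 0.03 to 0.49, adjusted p 0.256 to 0.976). On ctrl. it was higher at 4 of 6 times and lower at 2 (log2 fold change -0.55 to 0.996, adjusted p 0.294 to 0.934).

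CHAC1 degrades glutathione. With corticosterone *Chac1* went from 0.575, 0.87 and 0.752 CPM in vehicle livers to 6.9, 14.8 and 11.5 CPM in CORT livers. The lowest CORT liver was far above the highest vehicle liver (log2 fold change 3.89, SE 0.35, adjusted p 0.00219), and all 10 alternatives called it (4.35e-17 to 0.0189). The diet comparison gave the opposite direction, with 8.54, 4.99 and 3.01 CPM on ctrl. and 2.76, 3.64 and 2.27 CPM on cal. res. The diets overlapped and the difference was not called (log2 fold change -0.94, SE 0.38, adjusted p 0.0775). DESeq2 called it (0.0376), as did edgeR without ctrl. replicate 3 (0.0205), and the alternatives ran from 0.00714 to 0.262. The lowest came from the time series (log2 fold change -1.71), where batch and diet cannot be told apart.

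In the time series *Chac1* stood highest at the meal in WT on ctrl., with 3.19, 5.26, 6.66 and 7.28 CPM at ZT12, and 1.69, 2.87, 1.83 and 2.69 CPM in GR LKO. No GR LKO liver reached the lowest WT liver (log2 fold change -1.30, SE 0.30, adjusted p 0.0647). That difference was called by DESeq2 (0.00375) and by edgeR without WT replicate 1 (-1.49, adjusted p 0.0272), in alternatives from 0.00375 to 0.208. On cal. res. at the same time WT livers had 1.122, 1.74 and 2.32 CPM and GR LKO livers 1.04, 0.96 and 0.308 CPM, also without overlap (log2 fold change -1.17, SE 0.48, adjusted p 0.151), and the interaction of genotype and diet at ZT12 was 0.15 (SE 0.59, adjusted p 0.944). By ZT16 the WT livers had fallen to 1.28, 0.765, 1.2 and 0.358 CPM on ctrl. (log2 fold change -2.62, SE 0.39, adjusted p 0.00458, called in all 13 alternatives with 2.41e-08 to 0.0311) and to 0.159, 0.142 and 0.587 CPM on cal. res. (-2.49, SE 0.57, adjusted p 0.0118, called in all 11 with 0.00276 to 0.0474). The times did not overlap on either diet. In GR LKO the fall on ctrl. was not called (-0.94, SE 0.41, adjusted p 0.209), and it is not shown to differ from that in WT, since the interaction of genotype and time was not called either (adjusted p 0.636). On cal. res. GR LKO livers had 0.231, 0.119 and 0.125 CPM at ZT16, at 2 to 4 counts, and the gene passed the filter there in 7 alternatives only, called in 4 of them (0.0132 to 0.0812), by edgeR with no filter (-2.21, adjusted p 0.0395), in 1 fit of all cal. res. libraries (-2.22, adjusted p 0.0152), without ZT12 replicate 3 (-2.58, adjusted p 0.0132) and without ZT16 replicate 1 (-2.59, adjusted p 0.0448). JTK_CYCLE called *Chac1* in GR LKO on cal. res. only (adjusted p 0.03), a call lost without replicate 1, 2 or 3 of each time (0.0962, 0.379 and 0.278). The F test of time also called it in WT on cal. res. (0.00524, range over the alternatives 0.00524 to 1) and on ctrl. (0.00117, range 0.00117 to 0.556).

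**Figure D2:**
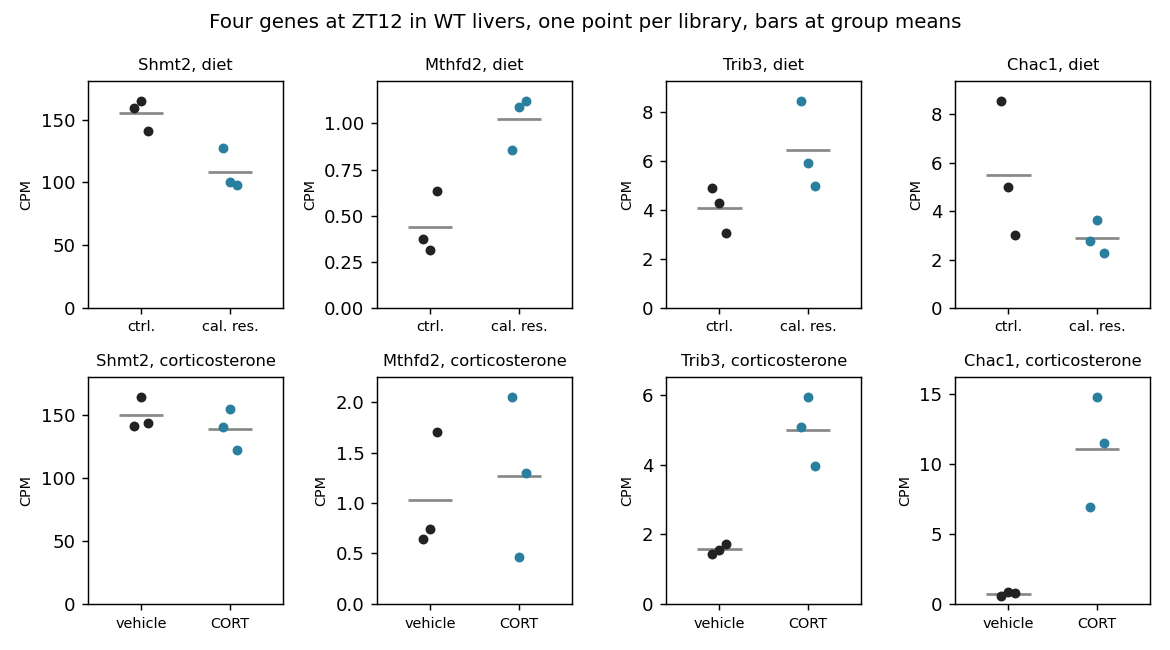
CPM of *Shmt2*, *Mthfd2*, *Trib3* and *Chac1* at ZT12 in WT livers, in the diet comparison (top, ctrl. and cal. res.) and the corticosterone experiment (bottom, vehicle and CORT), with 1 point per liver and bars at group means. *Trib3* and *Chac1* lie higher in all 3 CORT livers, *Shmt2* lower and *Mthfd2* higher in all 3 cal. res. livers.

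ATF5 is a transcription factor of the stress response whose own mRNA is translated when eIF2alpha is phosphorylated. Corticosterone and the diet comparison left *Atf5* within its spread, with 158, 194 and 206 CPM in vehicle livers and 203, 210 and 138 CPM in CORT livers (log2 fold change -0.02, SE 0.18, adjusted p 0.963), and with 155, 121 and 148 CPM on ctrl. and 109, 172 and 161 CPM on cal. res. (0.06, SE 0.18, adjusted p 0.811). The groups overlapped in both. Between the WT livers of the time series at ZT12, where batch and diet cannot be told apart, the log2 fold change by diet was -0.72 with a call (adjusted p 0.0128). Its daily course was large. In WT on ctrl. it fell from 403, 413 and 381 CPM at ZT0 to 138, 119, 137 and 104 CPM at ZT12, and in WT on cal. res. it went from 99.2, 63.9 and 66.8 CPM at ZT12 to 242, 235 and 225 CPM at ZT16. JTK_CYCLE called it with a peak at ZT0 on ctrl. (adjusted p 6.16e-06 in WT and 0.00267 in GR LKO), which no alternative lost, and at ZT20 on cal. res. (0.0104 and 0.00686). The cal. res. calls were lost without replicate 1, 2 or 3 of each time in WT (0.0593, 0.0895 and 0.163) and without replicate 2 or 3 in GR LKO (0.0733 and 0.121).

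The rise after the meal on cal. res. was called in WT (log2 fold change 1.63, SE 0.17, adjusted p 0.000557) and in GR LKO, from 47.5, 59.7 and 60.4 to 111, 207 and 117 CPM (1.39, SE 0.24, adjusted p 0.00352). Every liver at ZT16 lay above every liver at ZT12, and all 11 alternatives called each rise (2.06e-20 to 0.00398 in WT, 1.81e-08 to 0.017 in GR LKO). On ctrl. the same step gave 148, 140, 137 and 158 CPM at ZT16 in WT, and 118, 135, 160 and 109 CPM at ZT12 and 164, 107 and 101 CPM at ZT16 in GR LKO. These overlapped with ZT12 (log2 fold change 0.23, SE 0.10, adjusted p 0.162 in WT and -0.06, SE 0.19, adjusted p 0.901 in GR LKO). The Kupffer, hepatocyte and adipocyte markers that moved in the same WT libraries were not tested for a part in the rise.

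*Atf5* was the member with the steadiest genotype difference on cal. res. At ZT20 WT livers had 200, 213 and 250 CPM and GR LKO livers 135, 148 and 140 CPM. All GR LKO livers lay below all WT livers, and the difference was called (log2 fold change -0.62, SE 0.10, adjusted p 0.0373). The call was lost with a replicate block (0.082) and without any 1 of the 6 livers, that is without WT replicate 1 (0.096), 2 (0.115) or 3 (0.121) or GR LKO replicate 1 (0.075), 2 (0.0838) or 3 (0.0752). At ZT8 WT livers had 78.2, 85.5 and 104 CPM and GR LKO livers 62.5, 60 and 51.3 CPM, without overlap (-0.62, SE 0.13, adjusted p 0.0529). DESeq2 called it (0.00059), as did edgeR with no filter (0.0461), in 1 fit of all cal. res. libraries (0.0461) and without WT replicate 1 (0.0498), in alternatives from 0.00059 to 0.188. At ZT16 GR LKO replicate 2 was near WT, and without it the difference was -1.04 (adjusted p 0.00683, range 0.00683 to 0.346) in place of -0.69 (SE 0.23, adjusted p 0.147). With all livers DESeq2 (0.0125) and 1 fit of all cal. res. libraries (0.017) called it too. At ZT0 WT livers had 223, 207 and 202 CPM and GR LKO livers 191, 143 and 139 CPM, without overlap (-0.42, SE 0.13, adjusted p 0.224), and the difference was called by DESeq2 (adjusted p 0.0418) and without GR LKO replicate 1 (0.0375, range 0.0375 to 0.496). Over the 6 times the log2 fold change lay between -0.69 and -0.40 with an unadjusted p under 0.05 at all 6 and an adjusted p of 0.0373 to 0.275.

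On ctrl. the fitted level of *Atf5* was lower in GR LKO at 3 times and higher at 3 (log2 fold change -0.23 to 0.20). The highest of these, at ZT20, fell to -0.12 (adjusted p 0.679) without GR LKO replicate 1, the library that stood apart. The difference between the diets was tested, and its interaction term was negative at each time, from -0.83 at ZT20 (SE 0.25, adjusted p 0.55) and -0.67 at ZT8 (SE 0.19, adjusted p 0.289) to -0.19 at ZT0 (SE 0.16, adjusted p 0.704), and edgeR called none. DESeq2 called the term at ZT8 (0.0432, range over the alternatives 0.0432 to 0.548). At ZT20 the term was -0.51 (adjusted p 0.365) without that library, which had 495 CPM beside 286 and 293 CPM in GR LKO and 337, 331, 305 and 280 CPM in WT.

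**Figure D3:**
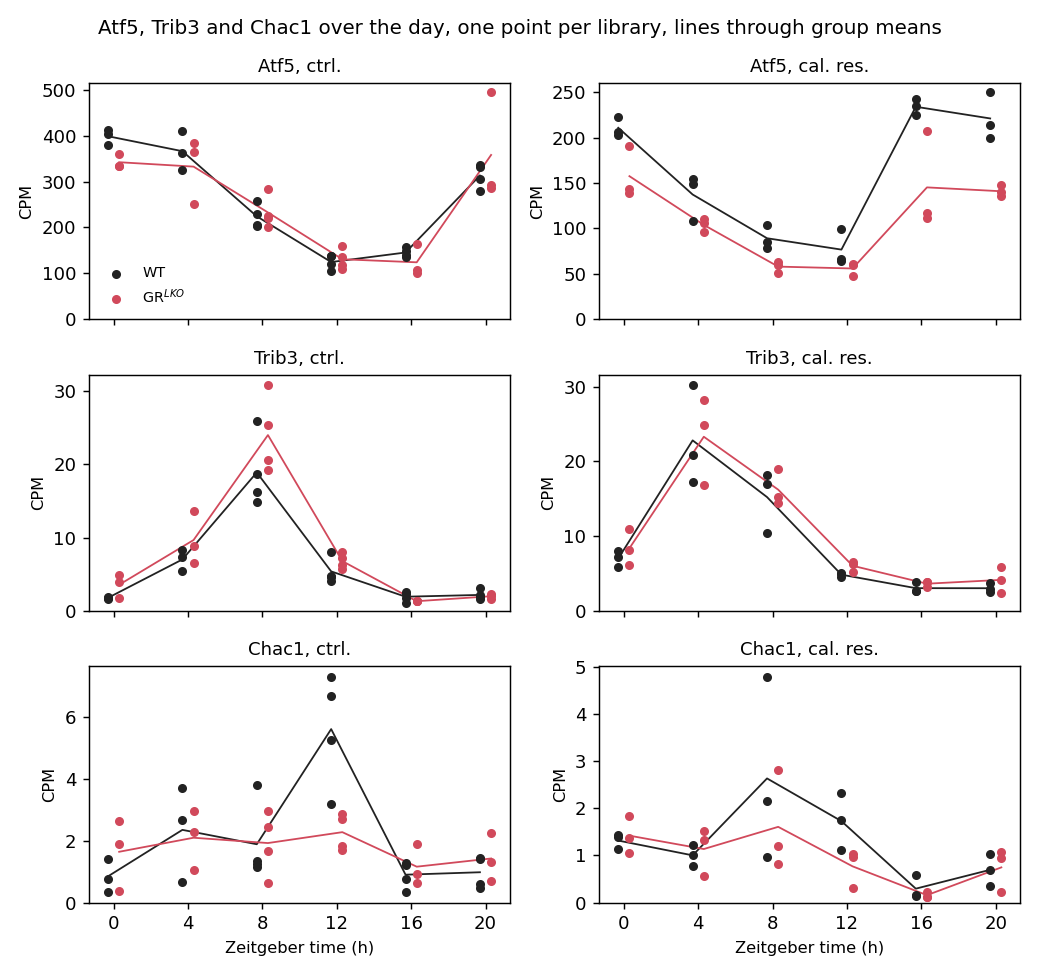
CPM of *Atf5*, *Trib3* and *Chac1* against zeitgeber time in hours, on ctrl. (left) and cal. res. (right), with 1 point per liver and lines through group means for WT (black) and GR LKO (red). *Trib3* peaks at ZT8 on ctrl. and at ZT4 on cal. res. in both genotypes, and the GR LKO means of *Atf5* lie below WT at each time on cal. res.

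The members did not move as 1 group. Across the 24 group means of the time series, in log2 CPM centred within each diet, *Trib3* and *Chac1* had a Pearson correlation of 0.56 and *Mthfd2* and *Atf5* of 0.62, while *Mthfd2* and *Trib3* had -0.70 and *Psph* and *Chac1* -0.68. These are descriptions over means that share libraries and batches. Among 11151 genes, those most like *Trib3* by the same measure were *Pi4kb* (0.93), *Tom1l2* (0.92) and *Mtx3* (0.92), those most like *Atf5* were *Arsg* (0.94), *Kynu* (0.93) and *B3gat3* (0.93), and those most like *Chac1* were *Mms19* (0.92), *Fam214b* (0.91) and *Ift46* (0.90). For *Mthfd2* they were *Acmsd* (0.90), *Srsf10* (0.86) and *Tra2b* (0.86), for *Asns* *Aoc2* (0.86), *Trim39* (0.85) and *Ebna1bp2* (0.84), for *Psph* *Ddx17* (0.85), *Atp2b2* (0.85) and *Zranb2* (0.84), and for *Shmt2* *Aspscr1* (0.76), *Aspdh* (0.75) and *Cib2* (0.71). For *Psat1* they were *Impact* (0.75), *Sema6c* (0.65) and *Rpia* (0.61), and for *Phgdh* *Ptgfrn* (0.69), *Cd63* (0.66) and *Casp12* (0.66). On cal. res. and ctrl. alone, *Shmt2* had 0.73 and 0.84 with *Aspscr1*, 0.82 and 0.52 with *Aspdh* and 0.89 and 0.23 with *Cib2*. *Phgdh*, *Psat1* and *Mthfd2* did not reach 1 CPM in each diet, so their correlations rest on few counts.

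A list of 46 other genes of serine and folate metabolism and of the amino acid stress response, none of them a member, was set beside the members. In the diet comparison 29 of its 45 genes tested were called (47.1% of all genes), 24 higher and 5 lower on cal. res., with a median log2 fold change of 0.38 where all genes had -0.00. *Ddit4* (5.66), *Sesn2* (1.75), *Gldc* (1.81) and *Vldlr* (2.64) rose and *Eif2ak2* (-0.73), *Agxt* (-0.84), *Glyctk* (-0.42) and *Eif4ebp1* (-0.28) fell. With corticosterone 11 of 39 were called (8.11% of all genes), 8 higher and 3 lower (median 0.07, all genes -0.01), with rises of *Slc38a2* (2.80), *Cebpb* (2.04), *Ddit4* (3.51) and *Sds* (2.04) and falls of *Slc1a4* (-1.88), *Shmt1* (-0.52) and *Atf4* itself (-0.49, SE 0.09, adjusted p 0.0227). The mRNA of *Atf4* thus moved opposite to *Trib3* and *Chac1*, and its protein was not measured here. Between genotypes on cal. res. at ZT12, 10 of the 42 tested were called (15.3% of all genes), 4 up and 6 down without GR (median -0.00, all genes -0.00), with *Vldlr* (2.93), *Mthfd1l* (1.58), *Eif2ak4* (0.45) and *Shmt1* (0.38) higher and *Ddit4* (-2.90), *Gldc* (-1.50), *Slc38a2* (-0.99) and *Cebpb* (-1.03) lower.

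At the step from ZT12 to ZT16 the list was called in both directions, 9 higher and 10 lower of 40 in WT on cal. res. (40% of all genes in either direction), 6 and 12 of 42 in GR LKO on cal. res. (37.8%), 5 and 7 of 37 in WT on ctrl. (13.4%) and 4 and 4 of 39 in GR LKO on ctrl. (9.06%). *Slc38a2*, which codes for an amino acid transporter, fell in all 4 groups (-2.26, -1.75, -1.38 and -1.11), as *Trib3* did. Of 20 cytosolic aminoacyl-tRNA synthetases, which charge tRNA with amino acids, 9, 14, 5 and 4 were called higher in the same 4 groups and none lower by edgeR, *Wars* in each (1.05, 1.04, 0.56 and 0.78), and in the diet comparison 2 were higher and 6 lower. Their shares are to be read beside the same 40, 37.8, 13.4 and 9.06% of all genes, and 47.1% by diet. A list of 9 known GR targets was chosen with earlier results of these data known, so it is no independent check. Of these 9 genes, 8 were called higher on cal. res. in the diet comparison (47.1% of all genes called) and 9 with corticosterone (8.11%). Among them *Fkbp5* went from 52.9, 41.6 and 19.8 CPM in vehicle livers to 217, 292 and 199 CPM in CORT livers (log2 fold change 2.63), and *Per1* from 24.3, 17.7 and 13.7 to 73, 75 and 81.4 CPM (2.04). Every CORT liver lay above every vehicle liver for both.

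Markers of other cells moved in the separate experiments as well. By diet 5 of 6 endothelial markers were called higher on cal. res. and none lower, and they summed to 119, 154 and 156 CPM on ctrl., led by *Kdr*, and to 210, 208 and 242 CPM on cal. res., led by *Clec4g* in replicates 1 and 2 and *Kdr* in replicate 3, with none at 0. With corticosterone 2 of 8 Kupffer and myeloid markers were called higher, and they summed to 80.4, 103 and 110 CPM in vehicle livers and 114, 164 and 140 CPM in CORT livers, led by *Clec4f*, with none at 0. Both sums were higher in every treated liver than in every control liver.

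Some other marker sums did not overlap between the diets either. Hepatocyte markers, led by *Alb*, summed to 100783, 102237 and 107013 CPM on ctrl. and 167563, 167900 and 169287 CPM on cal. res. (2 of 7 called higher and 1 lower, none at 0). Stellate markers, led by *Dcn*, summed to 235, 267 and 200 and to 317, 278 and 311 CPM (3 of 7 higher and 2 lower, none at 0). Adipocyte markers, led by *Car3*, summed to 1175, 1159 and 1150 and to 273, 104 and 77 CPM (1 of 3 tested higher and 2 lower), with *Plin1*, *Lep* and *Retn* at 0 in all 6 livers. Neutrophil markers, led by *S100a9* or *S100a8*, summed to 0.324, 0.653 and 0.713 and to 0.171, 0.234 and 0.273 CPM, too low to be tested, with *Ly6g* at 0 in all 6.

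With corticosterone endothelial markers, led by *Clec4g* or *Kdr*, went from 95.3, 98.3 and 120 CPM in vehicle livers to 78.3, 86.2 and 93.5 CPM in CORT livers (1 of 6 called lower, none at 0). Erythrocyte markers, led by *Hbb-bs*, or *Alas2* in CORT replicate 1, went from 700, 632 and 785 to 327, 558 and 301 CPM (0 of 5 called, none at 0). Adipocyte markers, led by *Car3*, went from 3332, 2769 and 2558 to 1748, 1680 and 1231 CPM (1 of 3 tested lower), with *Plin1* and *Lep* at 0 in all 6. Neutrophil markers, led by *S100a9* or *S100a8*, went from 0.0719, 0.684 and 0.615 to 2.43, 1.98 and 1.57 CPM (0 of 1 tested called), with *Ly6g* at 0 in all 6. The part of other cells in the values of the members was not tested in either experiment.

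Promoters were searched because *Trib3* and *Chac1* rose together with corticosterone while the other members tested did not. In RefSeq (GRCm38.p6), with windows of 300 bases around the gene start, all 9 members had an entry. The ATF4 motif TGATGNAA, on either strand, was found in 3 members, *Asns*, *Chac1* and *Trib3*, and in 3.97% of all 32851 windows. The match of *Trib3* ended after the gene start, and those of *Asns* and *Chac1* lay before it. The glucocorticoid response element, AGAACA and TGTTCT with any 3 bases between them, which reads the same on both strands, was found in 0 members and in 0.00913% of windows. A match is a description of letters and not a bound site, and no match says only that these letters are not in that window. The stretches around the match upstream of the gene start are printed for *Asns*, the member with the widest spread, and *Chac1*, which had the largest log2 fold change with corticosterone, with the motif in capitals.
*Asns*, chr6:7693210-7693252, minus strand: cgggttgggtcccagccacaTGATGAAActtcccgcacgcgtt
*Chac1*, chr2:119351029-119351076, plus strand, motif on the opposite strand: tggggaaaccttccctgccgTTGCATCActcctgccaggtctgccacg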

How the data were processed

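RNA of 90 livers was sequenced, and the authors deposited estimated counts per gene from Salmon, summed from transcripts with tximport by the paper's methods, after read checks with FastQC and MultiQC. Versions of these tools are in those methods and not in the labels. A deposited table of 6 columns of transformed values was not used. Counts were rounded to whole numbers, and 27244 of 27654 gene IDs were matched to symbols. The members and lists were chosen with earlier results of these data known. Every comparison had a fit of its own groups alone in R 4.3.3 with edgeR 4.0.16 (filterByExpr with a minimum count of 10, TMM, quasi-likelihood F test), and JTK_CYCLE was run on variance-stabilized values of DESeq2 1.42.0 with a period of 24 h and 6 phases. Alternatives were DESeq2, RLE scaling, no filter, 1 fit per diet, a replicate block, an F test of time, and each library left out. The replicate block was the replicate number entered as a factor in the edgeR fit. For comparisons of 2 groups and for genotype and diet, only libraries whose number occurred in every group were kept. Leaving out replicate 1 of GR LKO ctrl. at ZT20 from the tests over time was added after the data were seen. Depth ran from 10057544 to 39492146 counts, where 3 counts are 0.299 to 0.0749 CPM, and a level at 3 counts or fewer was read as near the detection limit. Genes of a list were named by the smallest adjusted p, at most 4 in each direction, and like genes by the highest Pearson correlation over 24 group means, 3 for each member. A gene named for 1 library was chosen after its values were seen.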

Additional observations from a re-analysis of the deposited data

Results flagged for a closer look

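Within groups of 4 livers, a value was singled out when the gap to its nearest neighbour, as a share of the group's range, passed the 5% critical value of Dixon's Q test. Of 54 such groups of the members, 4 were singled out, where chance gives about 1 in 20. All 4 were at ZT8 on ctrl. *Phgdh* in GR LKO replicate 2 had 0.152 CPM (2 counts) where the others had 0.0704 to 0.079 CPM (ratio 0.894). All 4 livers of that group were at 3 counts or fewer, so this ratio cannot be told apart from a difference of single counts. *Psat1* in WT replicate 4 had 0.871 CPM (13 counts) where the others had 0.35 to 0.429 CPM (ratio 0.848). *Mthfd2* in the same WT replicate 4 had 1.14 CPM (17 counts) where the others had 0.572 to 0.654 CPM (ratio 0.856). *Chac1* in WT replicate 2 had 3.79 CPM (53 counts) where the others had 1.14 to 1.34 CPM (ratio 0.926). No call at ZT8 on ctrl. rests on these values, and what set them apart was not tested.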

How the results depend on the processing

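RLE scaling changed no count of members called. DESeq2 called 4 members in the diet comparison in place of 2, on cal. res. 1 at ZT0, 1 at ZT4, 2 at ZT8 and 1 at ZT16 between genotypes, and 1 on ctrl. at ZT12, each in place of 0. It called 1 for the interaction of genotype and diet at ZT8 and 1 for genotype and time on cal. res. in place of 0. With no filter on low counts 1 member was called at ZT8 on cal. res. in place of 0. With 1 fit per diet, 1 was called at ZT8, 2 at ZT12 and 1 at ZT16 on cal. res., and 1 at ZT20 on ctrl. (*Psat1*, log2 fold change 2.65, adjusted p 0.0412), in place of 0. The *Psat1* value rests on GR LKO replicate 1, at 9.05 CPM beside 0.199 and 0.613, and that fit was not made without it. The F test of time called 5 members in WT on cal. res. in place of 3, 6 in GR LKO on cal. res. in place of 4, 5 in WT on ctrl. in place of 2 and 5 in GR LKO on ctrl. in place of 3.

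Replicate numbers were checked as pairs, and in 0 of 18 comparisons did every pair correlate above 0.1 (r -0.12 to 0.11). With the replicate number as a replicate block, 0 members were called in place of 1 at ZT20 on cal. res. (*Atf5*, adjusted p 0.082) and in place of 1 from ZT12 to ZT16 in GR LKO on ctrl. (*Trib3*, adjusted p 0.0569). Leaving out each library gave 1 to 3 members in the diet comparison, 1 to 2 with corticosterone, and between genotypes on cal. res. 0 to 1 at ZT0, 0 to 2 at ZT8, 0 to 1 at ZT12, 0 to 1 at ZT16 and 0 to 0 at ZT20, and 0 to 1 at ZT12 on ctrl. From ZT12 to ZT16 it gave 3 to 5 in WT and 2 to 3 in GR LKO on cal. res. Leaving out a replicate of every time gave 1 to 1 rhythmic members in WT and 1 to 2 in GR LKO on cal. res., and 2 to 4 and 2 to 3 on ctrl. Leaving out replicate 1 of GR LKO ctrl. at ZT20, a choice made after the data were seen, left 3 rhythmic members and 0 with an interaction of genotype and time. Among log2 fold changes called in the chosen analysis or in the alternative, 1 changed its sign, that of *Atf5* by diet, at -0.72 from the time series, where batch and diet cannot be told apart, in place of 0.06.

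Counts of all genes called moved more. With corticosterone 935 genes were called, 534 with the block and 206 to 1008 with a library left out. Between genotypes on cal. res., in the order main analysis, block, DESeq2, 1 fit per diet and range with a library left out, they were 61, 9, 434, 169 and 1 to 103 at ZT0, 83, 13, 443, 358 and 13 to 127 at ZT4, 308, 151, 697, 724 and 56 to 315 at ZT8, 1795, 889, 2079, 2805 and 899 to 1329 at ZT12, 541, 287, 916, 1025 and 234 to 346 at ZT16 and 178, 76, 686, 1127 and 16 to 194 at ZT20. In the same order on ctrl. they were 63, 9, 407, 630 and 3 to 81 at ZT0, 23, 1, 195, 48 and 1 to 13 at ZT4, 166, 36, 369, 36 and 56 to 160 at ZT8, 238, 101, 564, 537 and 137 to 199 at ZT12, 232, 37, 634, 469 and 84 to 183 at ZT16 and 50, 3, 297, 387 and 12 to 48 at ZT20. From ZT12 to ZT16 on ctrl. they were 1540, 998, 1905, 2203 and 875 to 1384 in WT and 1065, 16, 1397, 1821 and 379 to 980 in GR LKO. For the interaction of genotype and diet, in the order main, block, DESeq2 and range, they were 0, 0, 168 and 0 to 1 at ZT0, 0, 0, 37 and 0 to 17 at ZT4, 10, 7, 126 and 4 to 35 at ZT8, 123, 38, 473 and 49 to 148 at ZT12, 29, 11, 186 and 18 to 49 at ZT16 and 0, 0, 48 and 0 to 9 at ZT20. For genotype and time they were 696 on cal. res. (DESeq2 1314, range 89 to 296) and 77 on ctrl. (DESeq2 247, range 5 to 77). Rhythmic genes numbered 5181 and 4831 on cal. res. and 6095 and 5293 on ctrl. in WT and GR LKO, with 1653 to 1896, 979 to 1720, 3665 to 4829 and 2075 to 5364 when a replicate was left out, and 8123, 7713, 6244 and 5231 by the F test of time.

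With 3 or 4 livers a group, differences between genotypes of the size seen for *Atf5* sat near the threshold. *Phgdh*, *Psat1*, *Mthfd2* and *Chac1* rest on few counts. *Asns* had a pooled SD within groups of 1.43 in log2 CPM, above the size of most of its tested log2 fold changes between genotypes. The control diet of the diet comparison is labelled in 2 ways, and the annotation behind the counts is not stated. Times of day were sampled every 4 h over 1 day, so a rhythm cannot be told apart from a response to the meal. Only mRNA was measured, so translation of *Atf4* and *Atf5* and the activity of the enzymes were not.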
